A study of Homo sapiens with 12 samples.

Results

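The 36 genes described here encode enzymes and transporters of nucleotide metabolism. They were listed by name for their part in the synthesis, salvage, breakdown or transport of nucleotides, and all 36 were among the 18417 genes measured. By role they comprised 10 genes of de novo purine synthesis, 6 of purine salvage and interconversion, 5 of de novo pyrimidine synthesis, 9 of pyrimidine salvage, nucleoside breakdown and nucleotide phosphorylation, 3 that set the supply of deoxynucleotides and 3 of nucleoside transport or extracellular nucleotide breakdown.

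Expression was measured in EA.hy 926, a human hybrid line derived from umbilical vein endothelial cells and the A549 lung carcinoma line. Lo cells had been adapted to medium with 23 nM folic acid, and Hi cells were parallel cultures with 9 uM folic acid. Confluent cultures of both kinds were given fresh medium and, 24 h later, 0.5 uM pemetrexed (PMX) for 48 h. The 4 groups were Lo PMX, Lo control, Hi PMX and Hi control, each with 3 biological replicates on 1 array each, and all cultures had 10% serum in their medium. Lo cells were a separately adapted culture of a single line, so a difference between Lo and Hi cells holds every difference between those cultures. The labels name no vehicle for the controls.

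Cells build purines on a ribose phosphate that PRPS1 and PRPS2 make, in a chain that begins with the amidotransferase PPAT and ends at inosine monophosphate, from which GMPS and IMPDH2 lead to guanine and ADSS1 to adenine nucleotides. Pyrimidines are made by CAD, DHODH and UMPS, and CTP synthases turn UTP into CTP. Ribonucleotide reductase, of which RRM1 is the large and RRM2 the small subunit, converts ribonucleotides to deoxynucleotides for DNA synthesis. Salvage enzymes such as HPRT1, TK1 and DCK reuse bases and nucleosides, and SLC29A1 carries nucleosides through the cell membrane. Pemetrexed is an antifolate that blocks thymidylate synthase (TYMS) and, in purine synthesis, GART and ATIC, which use folate cofactors.

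The promoters of 5 members are printed because their messages, described in the paragraphs that follow, moved in different directions in treated or in folate-poor cells. Each line is a stretch upstream of the most upstream RefSeq start of the gene in GRCh38.p14, 5′ to 3′ on the gene's strand. Capitals mark the CCAAT box (CCAAT), the letters TTTGAA or TTCGAA of the element known as CHR, and the letters TGACGTCA of a cyclic AMP response element (CRE), each searched on both strands, so that TTCAAA in RRM1 marks TTTGAA on the opposite strand. RRM1 (chr11:4094435-4094684, plus strand), RRM2 (chr2:10122318-10122567, plus strand) and DTYMK (chr2:241686816-241687019, minus strand) fell in treated Lo cells, UPP1 (chr7:48088454-48088703, plus strand) rose there, and UMPS (chr3:124730202-124730451, plus strand) was higher in treated Lo than in treated Hi cells.
RRM1: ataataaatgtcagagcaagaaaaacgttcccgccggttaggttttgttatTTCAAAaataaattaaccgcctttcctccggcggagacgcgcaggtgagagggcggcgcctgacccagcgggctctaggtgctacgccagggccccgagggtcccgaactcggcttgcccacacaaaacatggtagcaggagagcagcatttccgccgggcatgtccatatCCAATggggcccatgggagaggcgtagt
RRM2: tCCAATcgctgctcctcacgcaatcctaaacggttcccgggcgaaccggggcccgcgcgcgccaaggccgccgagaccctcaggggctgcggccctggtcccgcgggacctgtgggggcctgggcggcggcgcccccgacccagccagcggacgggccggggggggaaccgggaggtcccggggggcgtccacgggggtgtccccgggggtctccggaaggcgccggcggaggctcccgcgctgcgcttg
DTYMK: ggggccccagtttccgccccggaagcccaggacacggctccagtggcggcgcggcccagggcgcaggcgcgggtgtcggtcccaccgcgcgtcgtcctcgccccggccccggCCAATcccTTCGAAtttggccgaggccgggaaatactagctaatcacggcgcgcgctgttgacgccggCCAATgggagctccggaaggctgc
UPP1: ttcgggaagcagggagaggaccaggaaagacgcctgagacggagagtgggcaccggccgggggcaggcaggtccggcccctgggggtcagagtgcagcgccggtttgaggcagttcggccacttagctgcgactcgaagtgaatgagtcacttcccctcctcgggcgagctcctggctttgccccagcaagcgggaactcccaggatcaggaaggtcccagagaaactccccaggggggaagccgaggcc
UMPS: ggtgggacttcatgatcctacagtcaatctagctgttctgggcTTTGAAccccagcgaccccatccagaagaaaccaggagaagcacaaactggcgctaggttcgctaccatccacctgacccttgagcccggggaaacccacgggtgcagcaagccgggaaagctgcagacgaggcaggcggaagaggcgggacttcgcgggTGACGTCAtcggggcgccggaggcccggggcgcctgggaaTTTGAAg
The DTYMK stretch has 204 bases because it ends at the neighbouring gene ING5, and the others have 250. DTYMK held CCAAT 92 and 24 bases and TTCGAA 84 bases before its start, and UMPS held TGACGTCA 47 bases before its start. The UPP1 stretch held none of the letters that capitals mark. RRM2 also has a further RefSeq start downstream, whose window is not printed. That window held CCAAT 123, 93 and 66 bases before its start.

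RefSeq promoters were found for 33 of the 36 members. Among all 35116 promoter windows of 250 bases, 32.0% held CCAAT, 14.3% the CHR letters, 1.65% the CRE letters and 42.6% the GC box GGGCGG. E2F-type letters (TTTCGCGC, TTTGGCGC, TTTCCCGC or TTTGCCGC) stood in 2.79% of windows. Of the 33 members, 12 had a window with CCAAT, 5 with CHR letters, 29 with the GC box, 1 (UMPS) with CRE letters and 1 (PRPS2) with E2F-type letters. Some members have several windows. Of all 49 windows of the members, 30.6% held CCAAT, 10.2% the CHR letters, 77.6% the GC box, 2.04% the CRE letters and 2.04% E2F-type letters. Of the 14 members that passed the test in any comparison with 12 arrays, 3 had CCAAT, 4 CHR letters and 12 the GC box.

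Levels are given as log2 values. The median over all probe sets lay between 7.24 and 7.33 in every array. The defining endothelial genes were high, with PECAM1 at the 99.25th, ENG at the 99.27th and CDH5 at the 98.65th percentile of all genes, whereas VWF stood at the 50.5th and CLDN5 at the 45.3rd. Of 12 epithelial and lung carcinoma markers 3 were above the median gene (KRT7, KRT8 and KRT18), of 9 leukocyte markers 2 (CD68 at the 97.2nd percentile and LYZ at the 66.7th) and of 10 fibroblast and smooth muscle markers 2 (ACTA2 at the 94.9th and COL1A1 at the 53.9th). The defining genes PTPRC of leukocytes and DCN of fibroblasts stood at percentiles 1.42 and 0.90. The number of arrays, 3 in each group, limits the precision of every comparison.

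The array labelled Hi control replicate 3 and the array labelled Lo control replicate 3 stood apart from their groups. Over all genes the first correlated at r = 0.995 with the Lo controls and at 0.990 with the other Hi controls, and the second at 0.997 with the Hi PMX arrays and at 0.992 with the other Lo controls. Of the 36 members, 30 had a level in Hi control replicate 3 nearer to the mean of the other Lo controls than to that of the other Hi controls, as did 60.6% of all genes. Lo control replicate 3 was nearer to the other Hi controls for 24 of 36 members and 63.3% of all genes. Whether these 2 arrays were exchanged was not tested, and an exchange would alter every 12-array value that uses controls. The labels were kept, and the main comparisons that use controls are given with all 12 arrays and with the 10 arrays that remain without these 2. These 2 were left out for their levels in these same data. Leaving them out widens the gap between Lo and Hi controls and narrows the spread by selection, so 10-array p-values can be too small.

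**Figure D1:**
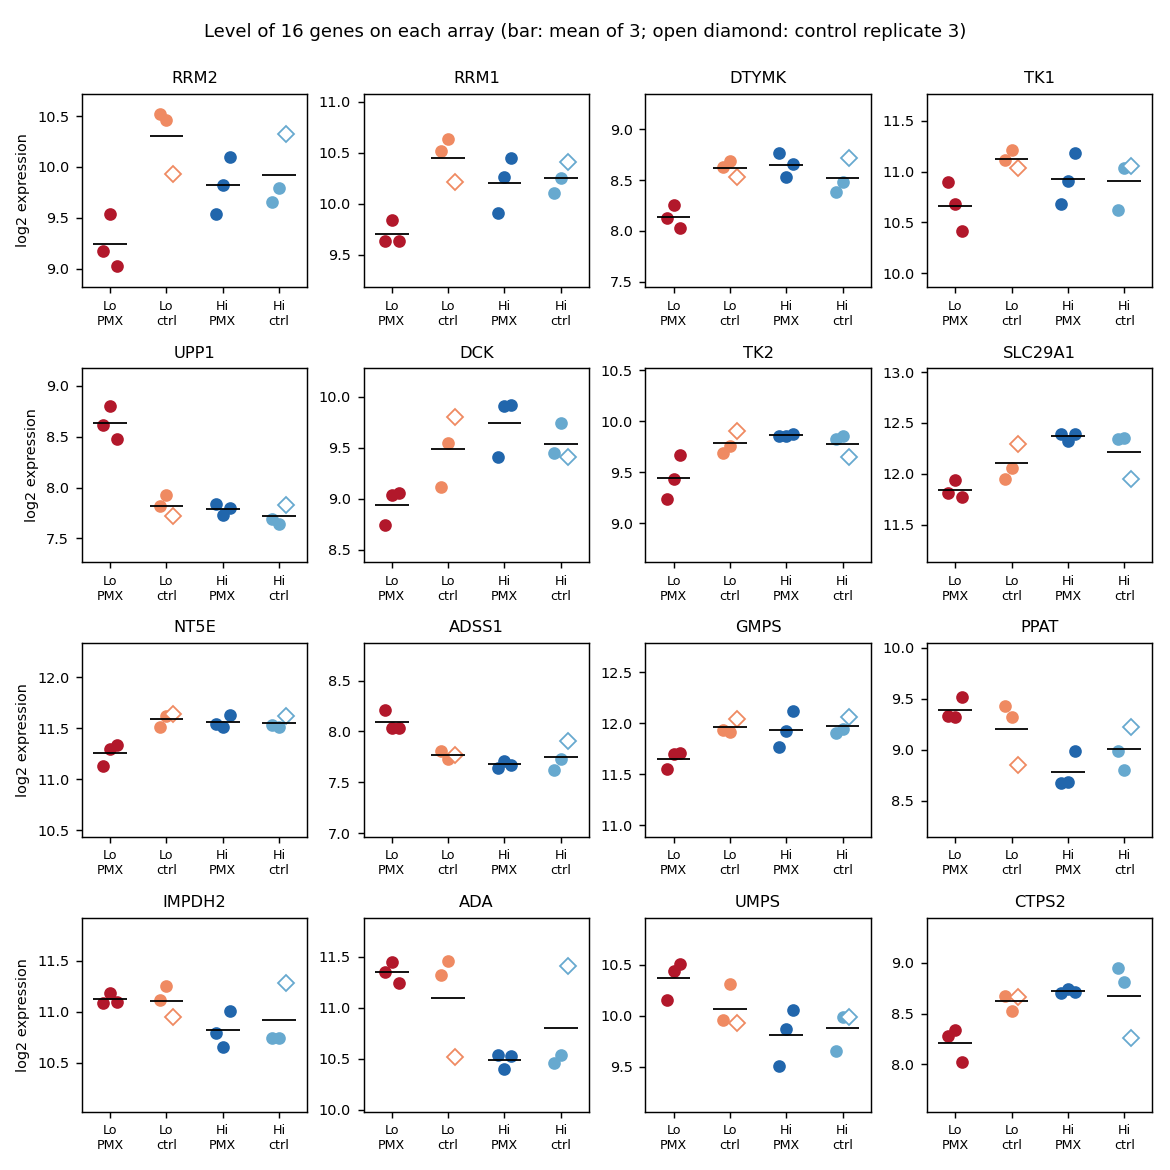
Deposited log2 level of 16 nucleotide metabolism genes in each of the 12 arrays, with 1 panel a gene, 1 point an array, and columns for Lo PMX, Lo control, Hi PMX and Hi control. Bars are means of 3 arrays and open diamonds the control arrays labelled replicate 3; for ADA they lie at 10.51 in Lo control and 11.41 in Hi control, each at the level of the opposite folate group.

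The level of the members spanned much of the range of the arrays. The purine nucleoside phosphorylase PNP, which releases bases from inosine and guanosine, had the highest mean over 12 arrays, at the 98.9th percentile of all genes, followed by SLC29A1 at the 97.6th and GMPS at the 96.8th. The members below the median gene were SLC29A2, a second nucleoside transporter, at the 45.6th percentile, ADSS1 at the 46.8th, UPP1 at the 49.3rd and DHODH at the 49.7th. All 6 genes of purine salvage and 9 of the 10 genes of purine synthesis lay above the median gene. A percentile of 1 probe set reflects its probes as well as its message, so neighbours in this order are not set against each other.

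In Lo cells given pemetrexed, both subunits of ribonucleotide reductase, the thymidylate kinase DTYMK, the guanine nucleotide enzyme GMPS and the ecto-enzyme NT5E fell, and the uridine phosphorylase UPP1 and the adenylosuccinate synthase ADSS1 rose. With 12 arrays, 2 of 36 members rose and 5 fell (limma, Benjamini-Hochberg adjusted p under 0.05 over all genes), against 5.60% of all genes that rose and 5.14% that fell. The median change of the members was -0.05 on the log2 scale, and that of all genes was 0.02. With 10 arrays 2 members rose and 5 fell, against 5.21% and 5.74% of all genes.

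RRM2, the small subunit of ribonucleotide reductase and a gene that cells express mainly in S phase (chr2:10122568-10211010), had 9.17, 9.54 and 9.02 in Lo PMX, against 10.52, 10.46 and 9.93 in Lo control. All 3 treated Lo arrays lay below all 3 Lo controls. In Hi PMX it had 9.54, 9.82 and 10.10, against 9.66, 9.79 and 10.32 in Hi control, and these groups overlapped. In Lo cells RRM2 changed by -1.06 ± 0.21 (log2, SE; 2.08-fold lower), with a limma adjusted p of 0.0061, and by -1.24 ± 0.16 with 10 arrays (adjusted p 4.2e-04).

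RRM1, the large subunit (chr11:4094685-4138932), had 9.64, 9.84 and 9.63 in Lo PMX, against 10.51, 10.63 and 10.21 in Lo control. Hi PMX had 9.90, 10.27 and 10.45 and Hi control 10.10, 10.25 and 10.41, again overlapping, while the treated Lo arrays were the 3 lowest of all 12. RRM1 changed by -0.75 ± 0.14 in Lo cells (1.68-fold lower, limma adjusted p 0.0049). Both subunits kept their call when any single array was left out, with adjusted p up to 0.026 for RRM1 and 0.034 for RRM2. SAMHD1, which breaks deoxynucleotides down, was not called with 12 arrays (change -0.13, adjusted p 0.615) or with 10 (-0.28, adjusted p 0.10). RRM2B, the small subunit that p53 induces and not one of the 36 genes, changed by 0.26 ± 0.12 (adjusted p 0.194).

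DTYMK, which phosphorylates dTMP on the way to dTTP (chr2:241675747-241686815), had 8.13, 8.26 and 8.03 in Lo PMX, against 8.62, 8.69 and 8.53 in Lo control. In Hi PMX it had 8.77, 8.53 and 8.66, against 8.38, 8.48 and 8.71 in Hi control. The treated Lo arrays were below all others. DTYMK changed by -0.48 ± 0.10 in Lo cells (limma adjusted p 0.0082), and kept its call without any single array. Its 2 probe sets held identical values and were counted as 1 measurement. The thymidine kinase TK1, the salvage enzyme that supplies dTMP in S phase, had 10.90, 10.68 and 10.42 in Lo PMX, against 11.11, 11.21 and 11.03 in Lo control, and its change of -0.46 ± 0.15 was not called (adjusted p 0.081). TYMS, the target of pemetrexed that makes dTMP de novo, changed by -0.31 ± 0.13 (adjusted p 0.186).

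Markers of S phase and proliferation moved with these genes. Of 24 such markers, among them MKI67, TOP2A, PLK1 and the MCM genes, 20 fell and 0 rose in treated Lo cells, with a median change of -1.02. PCNA, CCNE2, CDC6 and TYMS, which are also on that list, were not called (limma adjusted p 0.097 to 0.392). The mean log2 level of the 24 markers was 9.11 to 9.24 over the Lo PMX arrays, against 10.2 to 10.3 in Lo control, while it was 9.82 to 10.3 in Hi PMX, against 9.84 to 10.2 in Hi control. The 12 endothelial markers also moved with 12 arrays, with 4 that fell, 0 that rose and a median change of -0.62. Their mean level was 10.1 to 10.3 in Lo PMX, against 10.5 to 11.1 (median 10.5) in Lo control. With 10 arrays 6 fell and 0 rose, and the median change was -0.33. The part of either list in the values of RRM1, RRM2, DTYMK and TK1 was not tested. In RNA from whole cultures, fewer cells in S phase and less of a message in each cell cannot be told apart.

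UPP1, which splits uridine into uracil and ribose phosphate (chr7:48088704-48108736), had 8.61, 8.80 and 8.48 in Lo PMX, against 7.82, 7.92 and 7.72 in Lo control. In Hi PMX it had 7.84, 7.73 and 7.80, against 7.69, 7.64 and 7.83 in Hi control. The 3 treated Lo arrays stood above the other 9, whose highest was 7.92. UPP1 rose by 0.81 ± 0.09 in Lo cells (1.75-fold, limma adjusted p 1.6e-04), and by 0.76 ± 0.09 with 10 arrays. Its call held without any single array, with an adjusted p of at most 0.0011. TYMP, which splits thymidine in the same way, changed by 0.04 (adjusted p 0.852).

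ADSS1, an adenylosuccinate synthase known mainly from muscle (chr14:104724229-104747325), had 8.21, 8.03 and 8.03 in Lo PMX, against 7.81, 7.73 and 7.77 in Lo control. Its change in Lo cells was 0.32 ± 0.08 (limma adjusted p 0.025). The call was lost without Lo control replicate 2, Lo control replicate 3 or Lo PMX replicate 1, with adjusted p up to 0.107. ADSS1 lies below the median gene in level, and Hi PMX had 7.64, 7.71 and 7.67, against 7.62, 7.73 and 7.91 in Hi control. The related gene ADSS2 was not measured, so these values describe ADSS1 alone.

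GMPS, which makes GMP from xanthosine monophosphate (chr3:155869430-155944020), had 11.55, 11.70 and 11.71 in Lo PMX, against 11.94, 11.92 and 12.04 in Lo control. It had 11.77, 11.93 and 12.12 in Hi PMX, against 11.90, 11.94 and 12.06 in Hi control, so the treated Lo arrays were the 3 lowest of the 12. Its change of -0.31 ± 0.09 was called with 12 arrays (limma adjusted p 0.045) and not with 10 (-0.28 ± 0.10, adjusted p 0.103). It was also lost without any one of 9 arrays and was kept only without Hi control replicate 3, Hi PMX replicate 1 or Hi PMX replicate 3. NT5E, the ecto-nucleotidase CD73 that makes adenosine outside the cell (chr6:85450083-85495784), had 11.13, 11.29 and 11.33 in Lo PMX, against 11.51, 11.62 and 11.64 in Lo control. In Hi PMX it had 11.54, 11.51 and 11.63, against 11.54, 11.51 and 11.62 in Hi control, which is nearly the same in each replicate. The Lo groups did not overlap, and the change was -0.34 ± 0.07 (adjusted p 0.011), which missed the threshold without Lo PMX replicate 1 (adjusted p 0.053).

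In the 10 arrays, same-numbered replicates deviated together, and a block for the replicate number raised the count in treated Lo cells to 2 that rose and 9 that fell, against 8.39% and 9.99% of all genes. The block added GMPS (adjusted p 0.011), the deoxycytidine kinase DCK (-0.46, adjusted p 0.0013), the mitochondrial thymidine kinase TK2 (-0.34, adjusted p 0.020) and SAMHD1 (-0.31, adjusted p 0.017). With 12 arrays and no block DCK (-0.55, adjusted p 0.071) and TK2 (-0.34, adjusted p 0.056) had missed the threshold. CTPS2, the second CTP synthase, fell with 10 arrays, with the block (-0.34, adjusted p 0.019) and without it (-0.39, adjusted p 0.023), and was not called with 12 (-0.41, adjusted p 0.098).

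The de novo and salvage genes are given here against the 5.60% of all genes that rose and the 5.14% that fell in treated Lo cells with 12 arrays. Among 10 purine synthesis genes, 1 rose (ADSS1), 1 fell (GMPS) and 8 did not pass the test, with a median change of -0.01. PPAT, the committing step, changed by 0.19 (adjusted p 0.517) and by 0.02 with 10 arrays, and PFAS, PAICS, ADSL, IMPDH1, IMPDH2, PRPS1 and PRPS2 changed by between -0.14 and 0.05 with 12 arrays and between -0.19 and 0.01 with 10. Among 5 pyrimidine synthesis genes and among 6 purine salvage genes 0 were called with 12 arrays. In pyrimidine synthesis the changes ran from -0.41 for CTPS2 to 0.30 for UMPS (adjusted p 0.278), with CAD at -0.08, CTPS1 at -0.05 and DHODH at 0.12. With 10 arrays UMPS changed by 0.23, CAD by -0.18, CTPS1 by -0.10 and DHODH by 0.03. HPRT1 and APRT, which salvage purine bases, changed by -0.00 and 0.04, the adenosine kinase ADK by -0.03 and the AMP deaminase AMPD2 by -0.15, while PNP changed by 0.18 (adjusted p 0.123) and ADA by 0.25 (adjusted p 0.636). With 10 arrays the sign of ADA turned, to -0.04, and the other 5 salvage genes changed by between -0.12 and 0.18. Of the remaining kinases and deaminases of pyrimidine salvage, UCK2, CMPK1 and DCTD changed by between -0.18 and -0.02 with 12 arrays and between -0.15 and -0.07 with 10. The transporters SLC29A1 and SLC29A2 changed by -0.26 (adjusted p 0.194) and -0.05, and with 10 arrays by -0.16 and -0.01.

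Of 56 further nucleotide metabolism genes outside the 36, 49 were measured, and in treated Lo cells 3 rose and 3 fell, with a median change of 0.01. Among them DUT, which removes dUTP, fell by 0.32 on the log2 scale (adjusted p 0.033, and 0.088 with 10 arrays), and DPYD, which breaks down the uracil that UPP1 releases, fell by 0.92 (adjusted p 0.0028). GART and ATIC changed by 0.05 and -0.04, and with 10 arrays by -0.03 and -0.14 (0 called).

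**Figure D2:**
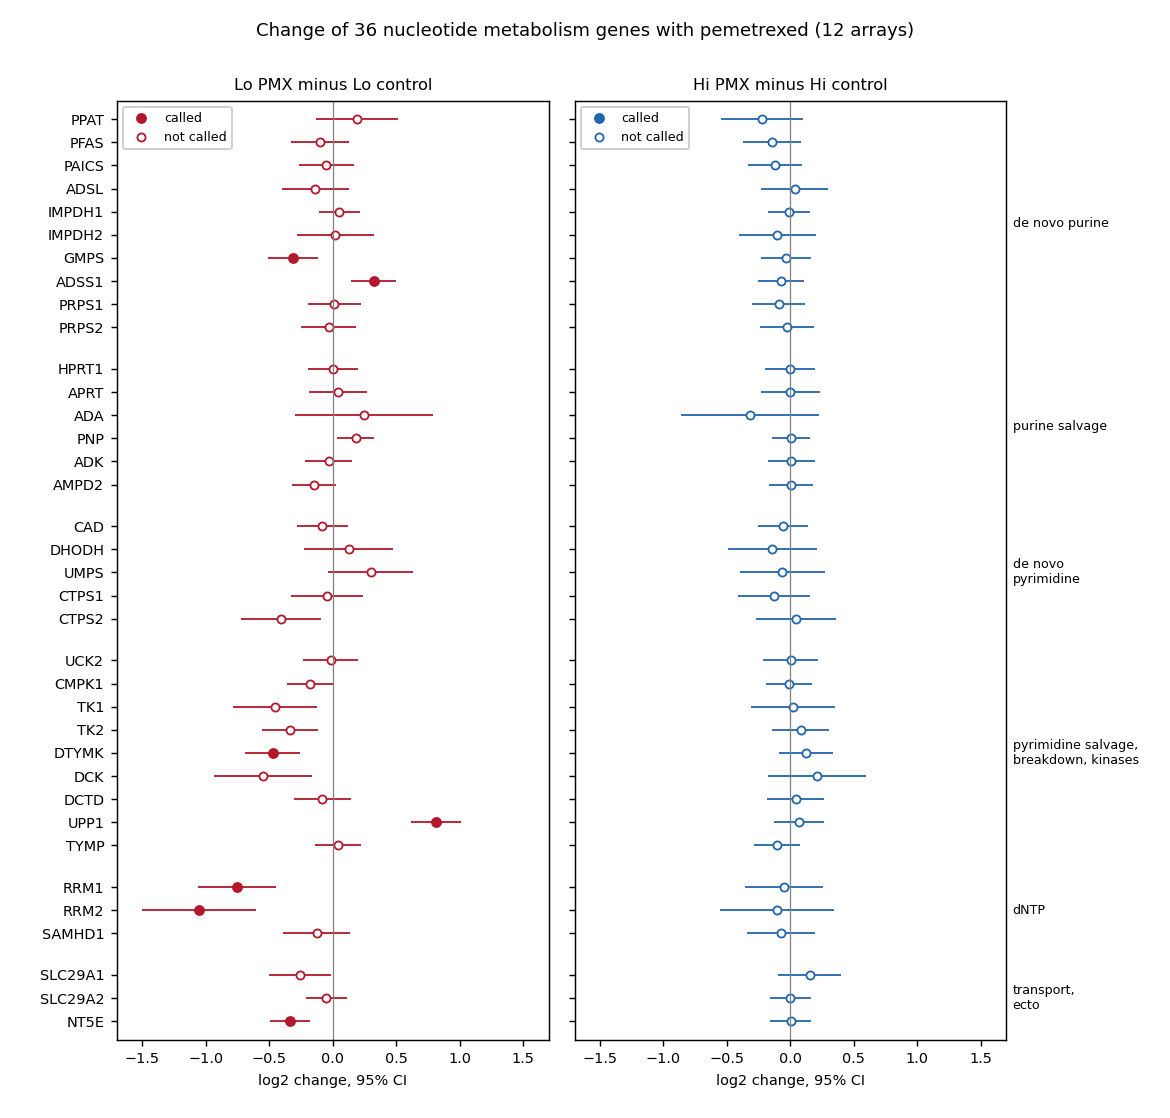
Log2 change of the 36 genes with pemetrexed, Lo PMX minus Lo control on the left and Hi PMX minus Hi control on the right, with 95% confidence intervals from limma on 12 arrays and filled points where the adjusted p is under 0.05. In Lo cells RRM2 (-1.06) and UPP1 (0.81) lie farthest from 0, and in Hi cells 0 genes are called.

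In Hi cells no member was called. The 36 changes of Hi PMX against Hi control ran from -0.32 (ADA) to 0.21 (DCK), with a median of -0.01, and 0 of 36 had an unadjusted p under 0.05 in limma. Of all genes 0% was called with 12 or with 10 arrays, and 266 of 18417 had an unadjusted p under 0.05 with 12 arrays. The 95% intervals of the members reached from -0.86 (ADA) to 0.60 (DCK) with 12 arrays and from -0.44 to 0.53 with 10, which are the outermost bounds of any member and not a limit for every member. The precision differed from gene to gene. RRM2 changed by -0.10 (95% interval -0.55 to 0.35), RRM1 by -0.05 (-0.36 to 0.26) and UPP1 by 0.07 (-0.13 to 0.27). With 10 arrays DTYMK was the 1 member with an unadjusted p under 0.05, at a change of 0.22 and an adjusted p of 0.9999. The ADA value rests on Hi control replicate 3, and with 10 arrays ADA changed by -0.01.

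The response of Lo cells was compared with that of Hi cells by the interaction term, which is the change in Lo cells minus the change in Hi cells. With 12 arrays 1 of 36 members was higher and 1 lower, against 2.57% and 2.24% of all genes. These were UPP1, with a difference of 0.74 ± 0.13 (limma adjusted p 0.0073), and DTYMK, with -0.60 ± 0.14 (adjusted p 0.029). The UPP1 call held without any single array, whereas the DTYMK call was lost without any one of 8 arrays (adjusted p up to 0.082) and was kept only without Hi control replicate 3, Hi PMX replicate 2, Lo control replicate 3 or Lo PMX replicate 2.

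With 10 arrays 1 member was higher and 3 were lower in the interaction, against 2.02% and 2.14% of all genes. RRM2 then differed by -1.34 ± 0.23 (adjusted p 0.0063) and RRM1 by -0.90 ± 0.19 (adjusted p 0.021), while with 12 arrays their differences of -0.95 and -0.70 had adjusted p of 0.088 and 0.067. The replicate block on 10 arrays raised the count to 1 higher and 5 lower, against 4.68% and 4.76% of all genes, by adding DCK (-0.54, adjusted p 0.0059) and NT5E (-0.35, adjusted p 0.048). Of the 24 proliferation markers 17 were lower in the interaction with 12 arrays, and their part in the values of RRM1, RRM2 and DTYMK was not tested.

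Among treated cells, Lo PMX was compared directly with Hi PMX. The size of each difference uses neither of the arrays that stood apart. Its standard error and p-value with 12 arrays do use them, because the fit pools the spread of all groups. This comparison shares the Lo PMX arrays with that of treated and control Lo cells, so the same arrays enter both. With 12 arrays in the fit, 5 of 36 members were higher and 8 lower in Lo PMX, against 11.3% and 11.0% of all genes. The median difference of the members was 0.08, and that of all genes was 0.01. Higher were ADA, ADSS1, PPAT, UMPS and UPP1, and lower were CTPS2, DCK, DTYMK, GMPS, NT5E, RRM1, SLC29A1 and TK2.

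ADA, the deaminase that turns adenosine and deoxyadenosine into inosine and deoxyinosine (chr20:44619522-44651699), had 11.35, 11.45 and 11.24 in Lo PMX, against 10.54, 10.40 and 10.52 in Hi PMX. The gap between the groups was far larger than the spread within either. ADA differed by 0.86 ± 0.25 (1.82-fold, limma adjusted p 0.026). Since the 12-array fit pools the spread of all groups, and the controls labelled replicate 3 widen it for ADA, the call was lost without any one of the 6 treated arrays (adjusted p up to 0.082), while with 10 arrays the same difference had an SE of 0.08 and an adjusted p of 5.6e-06.

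PPAT, the first committed enzyme of purine synthesis (chr4:56393362-56435615), had 9.33, 9.32 and 9.52 in Lo PMX, against 8.67, 8.69 and 8.98 in Hi PMX. Every treated Lo array exceeded every treated Hi array, and the controls spanned that gap, with 9.42, 9.32 and 8.85 in Lo control and 8.99, 8.80 and 9.23 in Hi control. PPAT differed by 0.61 ± 0.15 (limma adjusted p 0.011) and missed the threshold without Lo PMX replicate 3 (adjusted p 0.052). PAICS, a later enzyme of the same chain whose gene lies head to head with PPAT, differed by 0.17 (adjusted p 0.285). UMPS, which makes UMP from orotate (chr3:124730452-124749273), had 10.15, 10.43 and 10.51 in Lo PMX, against 9.51, 9.87 and 10.05 in Hi PMX. The controls had 9.96, 10.31 and 9.93 in Lo control, against 9.65, 9.98 and 9.99 in Hi control. Every treated Lo array was above every treated Hi array, with a difference of 0.55 ± 0.15 (adjusted p 0.022), and the call was lost without Hi PMX replicate 1, Lo PMX replicate 2 or Lo PMX replicate 3 (adjusted p up to 0.089).

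DCK, which phosphorylates deoxycytidine and several nucleoside drugs (chr4:70993649-71030914), had 8.74, 9.03 and 9.05 in Lo PMX, against 9.41, 9.91 and 9.92 in Hi PMX. Lo control had 9.12, 9.55 and 9.80, against 9.45, 9.75 and 9.41 in Hi control, so that the treated Lo arrays were the lowest 3 of all. DCK differed by -0.81 ± 0.18 (1.75-fold lower, limma adjusted p 0.0066), the largest fall of any member in this comparison. TK2, the mitochondrial thymidine kinase (chr16:66508003-66550291), had 9.24, 9.44 and 9.67 in Lo PMX, against 9.86, 9.85 and 9.88 in Hi PMX. Lo control had 9.69, 9.76 and 9.90, against 9.82, 9.86 and 9.65 in Hi control. The treated Hi values were nearly equal and the treated Lo values spread, and TK2 differed by -0.41 ± 0.10 (adjusted p 0.012, and 0.051 without Lo PMX replicate 1). TK1 differed by -0.26 and was not called (adjusted p 0.28).

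SLC29A1, the main equilibrative nucleoside transporter (chr6:44219615-44234142), had 11.82, 11.94 and 11.78 in Lo PMX, against 12.39, 12.33 and 12.39 in Hi PMX. It differed by -0.53 ± 0.11 (limma adjusted p 0.0059), and its call held without any single array. CTPS2 (chrX:16587999-16712910) had 8.28, 8.34 and 8.03 in Lo PMX, against 8.70, 8.74 and 8.71 in Hi PMX. Lo control had 8.68, 8.53 and 8.66, against 8.95, 8.81 and 8.26 in Hi control. The treated groups did not overlap, and CTPS2 differed by -0.50 ± 0.14 (adjusted p 0.025), a call that was lost without any one Hi PMX array or Lo PMX replicate 3 (adjusted p up to 0.109). CTPS1, the other CTP synthase, pointed the other way with 0.30 and was not called with 12 arrays (adjusted p 0.13).

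For the members that had changed with treatment in Lo cells, the values against Hi PMX were as follows. UPP1 differed by 0.84 ± 0.09 (limma adjusted p 8.7e-05), and ADSS1 by 0.42 ± 0.08 (adjusted p 0.0035). DTYMK differed by -0.51 ± 0.10 (adjusted p 0.0029) and NT5E by -0.31 ± 0.07 (adjusted p 0.010). These 4 calls held without any single array. RRM1 differed by -0.50 ± 0.14 (adjusted p 0.022), and its call was lost without Hi PMX replicate 2, Hi PMX replicate 3, Lo PMX replicate 1 or Lo PMX replicate 3 (adjusted p up to 0.099). GMPS differed by -0.29 ± 0.09 (adjusted p 0.040), was lost in a fit of these 2 groups alone (adjusted p 0.058) and without any one of 8 arrays, and was kept among single arrays left out only without Hi control replicate 1, Hi control replicate 3, Hi PMX replicate 1 or Lo control replicate 3. RRM2 differed by -0.58 ± 0.21 and was not called with 12 arrays (adjusted p 0.066).

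With the 10 arrays in the fit, which changes only the estimate of the spread here, 7 members were higher and 9 lower, against 13.7% and 14.0% of all genes. IMPDH2, the main inosine monophosphate dehydrogenase (0.30, adjusted p 0.022), PRPS1 (0.26, adjusted p 0.024) and RRM2 (adjusted p 0.0099) were added. IMPDH2 had 11.09, 11.19 and 11.10 in Lo PMX, against 10.79, 10.66 and 11.01 in Hi PMX. PRPS1 had 11.45, 11.51 and 11.42 in Lo PMX, against 11.09, 11.15 and 11.36 in Hi PMX. For both, every treated Lo array was above every treated Hi array. With the replicate block 10 were higher and 9 lower, against 17.6% and 18.0% of all genes. Of the 49 further nucleotide genes 8 were higher and 4 lower with 12 arrays, RRM2B among them with 0.36 (adjusted p 0.043). Of the 24 proliferation markers 19 were lower, and of the 12 endothelial markers 10 were lower and 0 higher. Of the 12 epithelial and lung carcinoma markers 2 were higher and 1 lower with 12 arrays, and 4 higher and 1 lower with 10. The part of these markers in the members' differences was not tested.

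**Figure D3:**
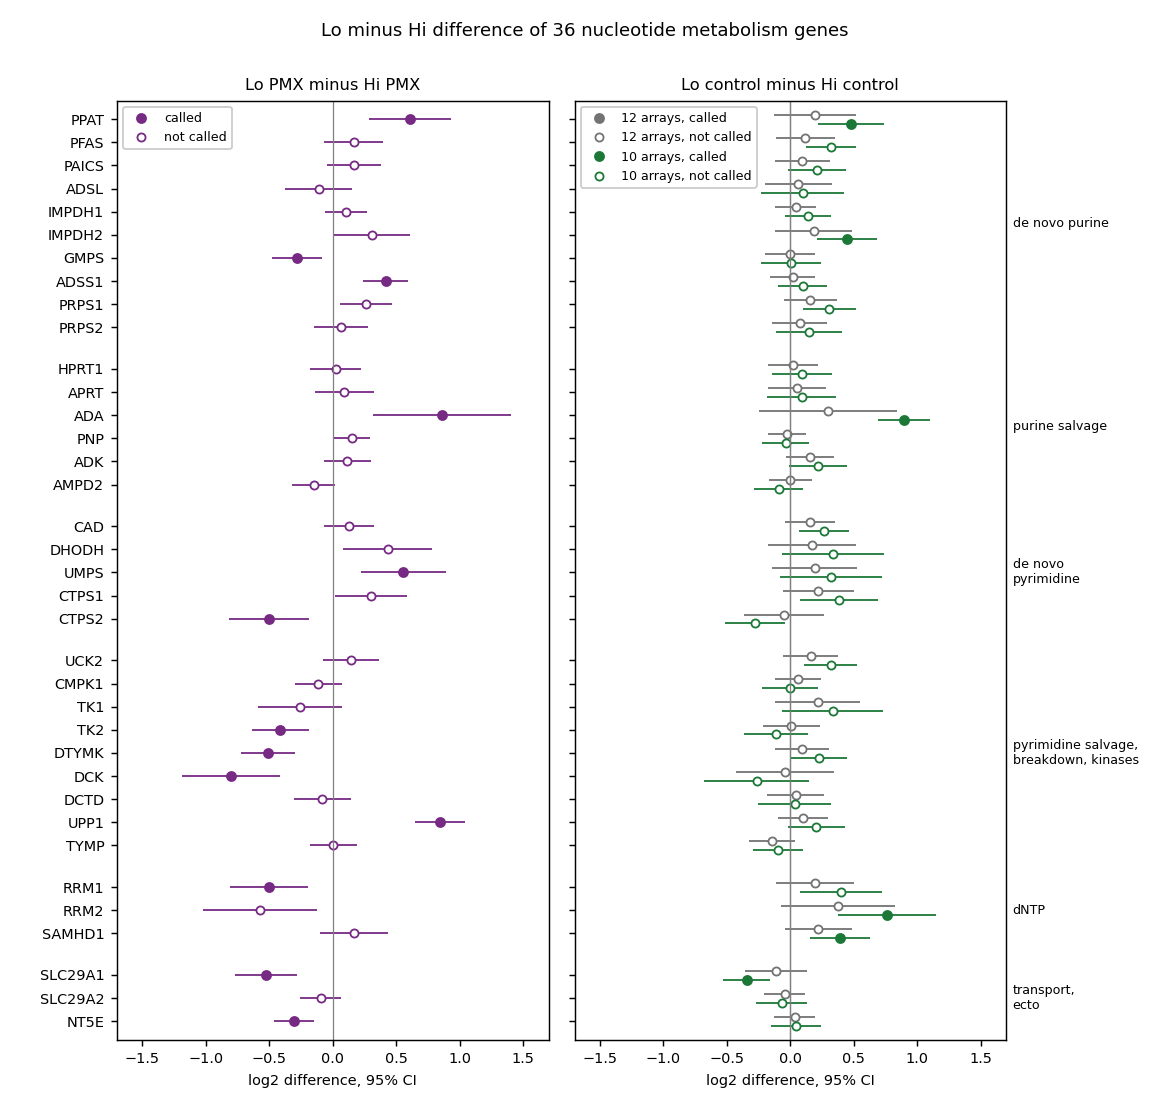
Log2 difference of the 36 genes between Lo and Hi cells, Lo PMX minus Hi PMX on the left and Lo control minus Hi control on the right, with 95% confidence intervals from limma and filled points where the adjusted p is under 0.05. On the right both the 12-array and the 10-array fits are drawn; ADA lies at 0.30 with 12 arrays and at 0.90 with 10.

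Between untreated cells the answer depended on the 2 arrays that stood apart. With 12 arrays 0 of 36 members were called in Lo control against Hi control, as were 0% of all genes. Of the members 0 had an unadjusted p under 0.05 in limma, against 387 of 18417 genes. With 10 arrays, which leave 2 controls in each group, 5 members were higher and 1 lower, against 3.67% and 3.50% of all genes. The 2 arrays were left out for lying near the other folate group, so the 10-array calls and p-values here are no independent test. The median difference of the members was 0.08 with 12 arrays and 0.17 with 10, and that of all genes was -0.01 with either.

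ADA had 11.32, 11.46 and 10.51 in Lo control, against 10.46, 10.54 and 11.41 in Hi control, where the third value of each group is the array that stood apart. With all arrays the groups overlapped completely, with a difference of 0.30 ± 0.25. Without the replicates labelled 3 the difference was 0.90 ± 0.10 (limma, 10 arrays, adjusted p 1.4e-04), close to the 0.86 between treated Lo and Hi cells. The levels of ADA fell into values of at least 11.24 and values of at most 10.54 over the 12 arrays, and pemetrexed changed it by -0.04 in Lo cells and by -0.01 in Hi cells with 10 arrays.

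RRM2 differed by 0.76 ± 0.18 between Lo control and Hi control with 10 arrays (limma adjusted p 0.022), the opposite sign to its difference of -0.58 between treated cells. PPAT differed by 0.48 ± 0.12 (adjusted p 0.032). IMPDH2 had 11.11, 11.26 and 10.95 in Lo control, against 10.74, 10.75 and 11.28 in Hi control, and differed by 0.44 ± 0.11 with 10 arrays (adjusted p 0.028). SAMHD1 had 10.00, 10.02 and 9.55 in Lo control, against 9.61, 9.63 and 9.67 in Hi control, and its difference of 0.39 ± 0.11 lay at the threshold (adjusted p 0.0498). In treated cells SAMHD1 had 9.57, 9.82 and 9.80 in Lo PMX, against 9.40, 9.66 and 9.63 in Hi PMX, with overlapping groups. SLC29A1 was the 1 member that was lower, with 11.95, 12.06 and 12.30 in Lo control, against 12.35, 12.35 and 11.95 in Hi control, and a difference of -0.34 ± 0.08 (adjusted p 0.028).

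With the replicate block on 10 arrays 11 members were higher and 2 lower in Lo control, against 6.73% and 6.42% of all genes. Among the added ones were UMPS (0.32, adjusted p 0.014), RRM1 (0.40, adjusted p 0.036), PRPS1 (0.31, adjusted p 0.034; 11.51, 11.53 and 11.32 in Lo control, against 11.21, 11.21 and 11.46 in Hi control) and, lower, DCK (-0.27, adjusted p 0.047). With 10 arrays and no block, 6 of the 24 proliferation markers were higher and 0 lower in Lo control, and 6 of the 12 endothelial markers were lower and 0 higher. Of the 12 epithelial and lung carcinoma markers 3 were higher and 0 lower. Their part in the members' differences was not tested.

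**Figure D4:**
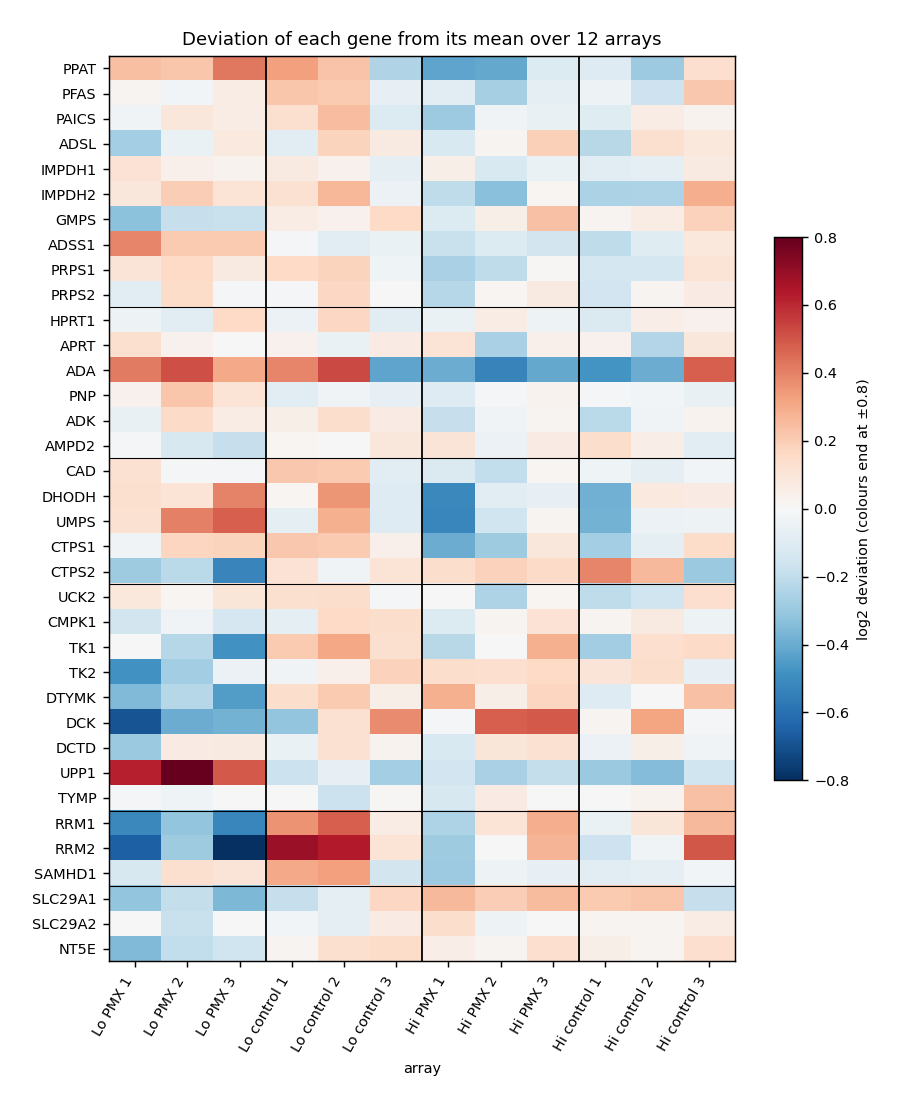
Deviation of each of the 36 genes (rows, grouped by role) from its mean over 12 arrays on the log2 scale, with arrays as columns in the order Lo PMX, Lo control, Hi PMX, Hi control. RRM2, RRM1, DTYMK and DCK are low in the Lo PMX columns and UPP1 is high there, while Hi control replicate 3 and Lo control replicate 3 differ from the columns beside them for ADA, PPAT and SLC29A1.

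By role, the calls with 12 arrays are given for the comparison of treated with control Lo cells (5.60% of all genes rose and 5.14% fell) and for that of treated Lo with treated Hi cells (11.3% higher and 11.0% lower). With so few genes in each role, nothing is read from a role's count against these shares. Of 10 purine synthesis genes, 2 were called in the first comparison and 3 in the second. Of 6 purine salvage genes 0 and 1 (ADA) were called, and of 5 pyrimidine synthesis genes 0 and 2 (UMPS and CTPS2). Among 9 genes of pyrimidine salvage and phosphorylation 2 and 4 were called, with UPP1 as the one that rose in either. Of the 3 genes of deoxynucleotide supply 2 and 1 were called, and of the 3 of transport and extracellular breakdown 1 and 2. The remaining 22 members were called in none of the 5 comparisons with 12 arrays. The matching share of all genes was not counted, so nothing is read from this number.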

How the data were processed

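Total RNA of 12 cultures was hybridised to 1 Affymetrix array each, per the labels' protocols. The authors deposited 1 log2 value for each probe set and array, summarised with RMA in Partek 6.5 per the submitters' processing notes; the settings of RMA are not given in the sources used here, and neither detection calls nor background were used. Of 33297 probe sets, 19460 had 1 gene symbol; a gene took its brightest probe set by mean over 12 arrays, which gave 18417 genes. No filter or further normalization was applied.

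A linear model with 4 group means took in all arrays and left 8 residual degrees of freedom; it was run with lmFit and eBayes of limma 3.58.1 (R 4.3.3), with 5 two-sided contrasts. A gene was called, and is said to have risen or fallen, at a Benjamini-Hochberg adjusted p under 0.05 over all genes. Errors after ± are standard errors. The fit was tested on simulated data with independent normal noise at the spread of the Lo PMX and Hi PMX arrays. That simulation held no arrays out of place and no replicate effect, so it does not cover these features. The members and lists were chosen with earlier results of these data known, including the choice to leave out 2 control arrays. Members called in any contrast with 12 arrays have their value in each array named, and the others are given by change or range.

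Whether replicate numbers pair the arrays was checked from deviations from the group means. With 12 arrays, 11 of 18 same-numbered pairs correlated above 0.1, against 10 of 36 pairs with different numbers. With 10 arrays, 13 of 13 same-numbered pairs did (0.115 to 0.543), against 6 of 24 with different numbers. The replicate block is therefore given for the 10 arrays, though with 2 controls left in a group their deviations mirror each other. All cultures came from 1 line, so p-values cover its replicate spread alone. Promoters came from RefSeq, GRCh38.p14.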

Additional observations from a re-analysis of the deposited data

Results flagged for a closer look

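For 2 genes the response to pemetrexed differed between Lo and Hi cells by the interaction term with 12 arrays (limma, Benjamini-Hochberg over all genes). UPP1 responded by 0.74 more on the log2 scale in Lo than in Hi cells (adjusted p 0.0073), with all 3 Lo PMX arrays above all 3 Lo controls and overlapping Hi groups. For DTYMK the difference was -0.60 (adjusted p 0.029), and all 3 Lo PMX arrays lay below all 3 Lo controls.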

How the results depend on the processing

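The counts of members called were 7 (pemetrexed in Lo cells), 0 (pemetrexed in Hi cells), 0 (Lo against Hi control), 13 (Lo PMX against Hi PMX) and 2 (interaction) with 12 arrays. Leaving out 1 array at a time gave 4 to 9, 0 to 0, 0 to 0, 7 to 16 and 1 to 4. The lowest of these came without Lo PMX replicate 1 (4 members, pemetrexed in Lo cells), without Lo PMX replicate 3 (7, Lo PMX against Hi PMX) and, for the interaction, without any one of Hi control replicate 2, Hi PMX replicate 3, Lo control replicate 2, Lo PMX replicate 1 and Lo PMX replicate 3 (1), and its highest without Lo control replicate 3 (4). The 10 arrays moved the control comparison to 6 and the interaction to 4, while over all genes the interaction went from 886 to 767. With the replicate block on 10 arrays the counts were 11 (pemetrexed in Lo cells), 13 (control comparison) and 6 (interaction), and over all genes 3385, 2422 and 1738, against 1978, 0 and 886 with 12 arrays, and 6554 against 4107 for Lo PMX against Hi PMX. With 12 arrays, where the numbers paired the arrays less closely, the replicate block gave 8, 0, 0, 14 and 3 members. Over all genes that block gave 2248, 0, 0, 4492 and 994 calls. Over all genes the control comparison had 1320 calls with 10 arrays. Leaving out 1 array gave, over all genes, 1170 to 2563 calls for pemetrexed in Lo cells (lowest without Lo PMX replicate 3). It gave 2855 to 4607 for Lo PMX against Hi PMX and 443 to 956 for the interaction (both lowest without Lo PMX replicate 3). Quantile normalization, an intensity trend, the mean of probe sets, a filter on dim genes and a fit of only the 2 groups compared moved no count of members by more than 1.5 times. No member's change that was called reversed its sign in any of these settings.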

Other observations

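Outside the 36 genes, ITPA, which hydrolyses inosine triphosphate, rose in treated Lo cells by 0.51 ± 0.09 on the log2 scale (limma, 12 arrays, adjusted p 0.0035), and its interaction term was 0.58 (adjusted p 0.024, and 0.064 with 10 arrays). XDH, which oxidises hypoxanthine and xanthine to urate, rose by 0.48 ± 0.13 (adjusted p 0.033), and PRPSAP2, a partner of the PRPP synthases, by 0.42 ± 0.09 (adjusted p 0.0093). The level of XDH was low, with a mean of 6.41 at the 24.6th percentile of all genes. GMPR, which turns GMP back into IMP, changed by -0.70 ± 0.18 there (adjusted p 0.025) and differed by -1.01 between Lo PMX and Hi PMX (adjusted p 0.0019). With 10 arrays GMPR also differed by -0.60 between Lo control and Hi control (adjusted p 0.0040). In Hi cells the changes of these 4 genes with pemetrexed lay between -0.07 and 0.07 with 12 arrays and between -0.20 (GMPR) and 0.11 (XDH) with 10, and 0 were called with either.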
